A study of Mus musculus with 25 samples.

Results

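The 15 stroke libraries described here were placed in order by a score from 5 phagocyte genes. Every other gene was asked whether its level rose or fell along that order. The libraries are 15 of the 25 RNA-seq libraries of a mouse study of white matter stroke. In that study material was cut from brain sections under the microscope (laser capture microdissection) and sequenced as oligodendrocyte precursor cells (OPCs). The 15 are 8 libraries taken at Day 5 and 7 taken at Day 15 of white matter stroke, and the other 10 are controls without stroke. Strain, age of the animals, how the stroke was made, how many animals were used, and how cells were recognised before capture are not stated by the labels, which name no transgene or drug. Each value is an RPKM, by definition a read count scaled to gene length and library size. How the deposited values were scaled is not stated, so levels of different genes can be set side by side only roughly.

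Phagocytes of the brain are its resident microglia and, after injury, macrophages that enter from the blood. After myelin is damaged they engulf its debris, break it down in lysosomes, which hold cathepsins and lipases, and store or export the lipid that is left. OPCs are the dividing glia that give rise to the oligodendrocytes that make myelin, and a captured OPC area can hold processes or bodies of neighbouring cells.

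The 15 libraries were selected on their label of Day 5 or Day 15, and their order was chosen by the measured levels of 5 genes of mononuclear phagocytes: Lyz2, the lysozyme of myeloid cells, Cd68, a glycoprotein of late endosomes and lysosomes, Ctss, the protease cathepsin S, Tyrobp, the adaptor through which receptors such as Trem2 signal, and Mpeg1, a pore-forming protein of macrophages. Each library was divided by its upper quartile, the 75th percentile of its RPKM over the genes kept for testing, values were taken as log2(scaled RPKM + 1), and the phagocyte score is the mean of the 5 genes on that scale. A step of 1 in the score is close to a doubling of these genes. The values that make the score are given as a description of the libraries.

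At Day 5 the score was lowest in replicate 6 at 4.53, had a median of 5.29 and was highest in replicate 9 at 6.97. At Day 15 it was lowest in replicate 6 at 2.95, had a median of 4.05 and was highest in replicate 5 at 5.94. The ranges overlapped, with 4 Day 15 libraries below every Day 5 library and 1 Day 5 library above every Day 15 library. The Day 5 libraries averaged 5.41 ± 0.746 (SD, n = 8) and the Day 15 libraries 4.30 ± 1.06 (SD, n = 7), a difference of 1.10. It lay between 0.878 and 1.38 with each library left out in turn. As the same values set the order, no test is given.

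In deposited RPKM, Lyz2 ran from 6.25 in Day 15 replicate 6, the library with the lowest score, to 2210 in Day 5 replicate 4, with 868 in Day 5 replicate 9, the library with the highest score. Cd68 ran from 1.16 (Day 15 replicate 9) to 83.3 (Day 5 replicate 3), and its Day 5 values were at least 16.8 while 5 of the 7 Day 15 values were at most 4.56. Ctss was 1377 in Day 15 replicate 5 and between 2.93 and 356 in the other 14. Tyrobp was the lowest of the 5 genes in most libraries and ran from 1.88 to 42.1, and Mpeg1 ran from 3.58 to 280. Their highest values lay in 4 different libraries, and Tyrobp and Mpeg1 shared Day 5 replicate 1.

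On the log2 scale, with the mean of each day removed, the 5 genes tracked each other loosely. Spearman's rho over the 15 libraries was positive for 8 of the 10 pairs of score genes, with a median of 0.24 and a range from -0.20 to 0.45. Against the mean of the other 4, rho was 0.46 for Cd68, 0.44 for Lyz2, 0.40 for Mpeg1, 0.28 for Tyrobp and 0.20 for Ctss. These are descriptions over libraries that share a scaling factor within each library. Whether the score ranks the libraries by their content of phagocyte RNA was not tested.

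**Figure D1:**
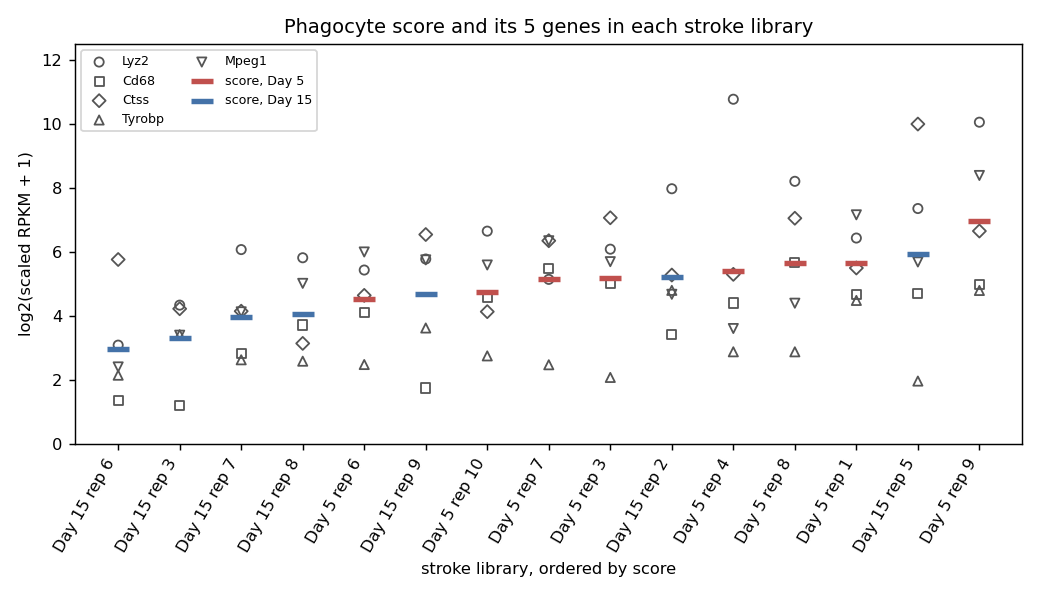
The phagocyte score (bars; red at Day 5, blue at Day 15) and its 5 genes (open symbols) in each of the 15 stroke libraries, in order of the score, on the log2(scaled RPKM + 1) scale. The score runs from 2.95 to 6.97, the 4 lowest bars are Day 15 libraries, and the symbols within 1 library spread over several log2 units.

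Scaled together with the controls, the mean score of the 10 controls was 2.38 ± 0.613 (SD, n = 10). The 8 Day 5 libraries had 5.07 ± 0.740 (SD, n = 8), and those of Day 15 had 3.98 ± 1.04 (SD, n = 7). Within the controls it ran from 1.63 to 3.44. Of the 15 stroke libraries, 13 stood above every control, and Day 15 replicates 6 (2.66) and 3 (3.01) did not. The 5 genes were chosen with their difference between stroke and control known, so no test is given. In these mixed captures, fewer phagocytes and less phagocyte RNA per cell cannot be told apart.

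Over the 15 stroke libraries, 1749 to 6592 genes had an RPKM of at least 1, and Rn45s, the ribosomal RNA precursor, took 0.451% to 68% of the RPKM sum. With the day mean removed, 4 properties of the libraries were set against the score (permutation tests within day, two-sided, adjusted over the 4), and none passed. Spearman's rho was 0.28 for the number of detected genes (r = 0.23, adjusted p = 0.735 and 0.991), 0.075 for the RPKM sum without Rn45s (r = 0.011, adjusted p = 0.966 and 0.991), -0.27 for the Rn45s share (r = -0.078, adjusted p = 0.735 and 0.991) and -0.014 for the upper quartile (r = 0.0030, adjusted p = 0.966 and 0.991). Without the 2 libraries farthest from the median score, Day 15 replicates 6 and 3, r became 0.34, 0.26, -0.53 and 0.24 in that order. From the RPKM as deposited, with no scaling, the score did go with the number of detected genes (rho = 0.75, r = 0.73, permutation adjusted p = 0.0122 and 0.0151). Gene levels went together only loosely between any 2 of the 15 libraries, with Pearson's r across genes from 0.131 to 0.398 over the 105 pairs.

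Set against the score, 0 of 3037 tested genes followed it and 0 ran against it (0% in each direction). The measure is the slope, the change in a gene's log2(scaled RPKM + 1) for a step of 1 in the score with the day as a covariate, and a gene was called where limma's p, adjusted by the Benjamini-Hochberg method over all 3037 genes, was under 0.05. The smallest adjusted p was 0.110. Before adjustment, 171 genes had a positive slope with p under 0.05 (5.63%) and 61 a negative one (2.01%). Slopes ran from -1.66 to 1.41 with a median of 0.07, and 58.2% were positive. The permutation test of Spearman's rho within day also called 0 genes (129 positive and 38 negative before adjustment, smallest adjusted p = 0.243), as did that of Pearson's r (162 and 48, smallest adjusted p = 0.0607).

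Single libraries carried many slopes: with each library left out in turn, 66 of the 98 named genes that were tested had a slope that moved by over 1.5 times, and 20 a slope that changed sign. The precision of a slope sets what this count can show. The median standard error was 0.346, and the median width of the 95% interval was 1.41. For 20.6% of the genes the interval held both 0, no relation, and 1, the slope of a gene that doubles whenever the score genes do. An interval wholly under 0.5 was taken as the sign of a gene that does not follow the phagocyte score at a pace of 0.5 or more, and 708 genes (23.3%) met it. Of these, 24 had a positive slope, and 61 had an interval wholly under 0. The log2(scaled RPKM + 1) scale understates the change of low genes, so a low gene can meet this bound through its level. Among the 1201 tested genes with a mean of at least 5 RPKM, 229 (19.1%) met it. At the other end, 5 genes had an interval wholly above 0.5. The remaining genes can be put on neither side with these libraries. The intervals are not adjusted for the number of genes, and the sorting holds for this scaling only. Cd33, for example, had an interval of -1.87 to -0.31, but a called positive slope with the whole-column scaling described further on.

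Peli2, a ubiquitin ligase of Toll-like receptor signalling, and Trafd1, a feedback regulator of innate immune signalling, had the smallest p of all genes. They fall outside the rule for named genes, which sets a minimum mean of 5 RPKM, and were picked once their values were known. The slope was 1.41 (SE 0.307) for Peli2 and 1.19 (SE 0.260) for Trafd1 (limma adjusted p = 0.110 for both), and mean RPKM was 4.93 and 4.75. Trafd1 passed without Tyrobp in the score (1.12, limma adjusted p = 0.0308) and without Day 5 replicate 9 (1.52, limma adjusted p = 0.0307). By rho the highest genes were Fam120c (0.86), Dhrs3 (0.85) and H2-Ab1, a chain of the class II antigen-presenting molecule (0.83), with adjusted permutation p of 0.243, 0.258 and 0.294. Fam120c and Dhrs3 were likewise picked from their values.

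Genes of the lysosome leaned to the side of the score. The score itself holds genes of the lysosome, Cd68 and Ctss among them, and how far this sets the lean was not tested. Of the 32 tested of 41 on the list, 26 had a positive slope, the median slope was 0.32 against 0.07 for all tested genes, and 0 had an interval wholly under 0.5 against 23.3% of all genes. None was called, and 5 had an unadjusted p under 0.05, all positive (5.63% of all genes). The median stayed between 0.23 and 0.38 with each library left out in turn, and was 0.37 after quantile normalization (0.03 for all genes), 0.59 for RPKM as deposited (0.27 for all genes) and 0.67 with the whole-column scaling described further on (0.39 for all genes). With the microglia genes in place of the 5 genes of the score, it was -0.04 (-0.01 for all genes).

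Lipa, the lysosomal acid lipase that frees cholesterol and fatty acids from engulfed lipid, had the largest slope on the list. Its RPKM ran from 3.20 through a median of 23.6 to 182 at Day 5, and from 0.184 through 0.577 to 31.2 at Day 15. The highest value of each day stood in the library with that day's highest score, Day 5 replicate 9 and Day 15 replicate 5, and the other 6 Day 15 values were at most 1.86. The slope was 1.40 (SE 0.385, limma adjusted p = 0.629), with rho = 0.53 and r = 0.78 over the 15 libraries (permutation p = 0.0369 and 0.00182, adjusted over all genes 0.841 and 0.425). It was 1.02 without Day 5 replicate 9 and 1.17 without Day 15 replicate 5. The slope was 0.78 with whole-column scaling and -0.44 with microglia genes in place of the score genes. With no day term it was 1.68 (limma adjusted p = 0.0413), the one gene that passed that fit, in which a difference between the days adds to the slope.

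Ctsz, the protease cathepsin Z, had 1.68 to 19.0 RPKM at Day 5 (median 5.99) and 0.0458 to 101 RPKM at Day 15 (median 3.47). Both its extremes were Day 15 libraries, the lowest in replicate 6 with the lowest score and the highest in replicate 5. Its slope was 1.27 (SE 0.373, limma adjusted p = 0.629) and 0.83 without Day 15 replicate 5. The slope was 0.69 with whole-column scaling and 0.25 with microglia genes in place of the score genes. Ctsl, cathepsin L, had a slope of 1.05 (SE 0.434, limma adjusted p = 0.629), which was 0.35 without Day 15 replicate 5, where it held 205 RPKM against 1.00 to 44.6 in the other 14. For Ctsl the slope was 0.26 with whole-column scaling and -0.29 with microglia genes in place of the score genes.

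With this scaling, lipid-handling genes had the highest median slope of the lists with at least 8 tested genes. Of the 11 tested of 22, 9 were positive, the median slope was 0.50, 0 were called and 0 lay wholly under 0.5. The median was 0.17 without Day 15 replicate 5, 0.45 after quantile normalization and 0.65 for RPKM as deposited. With whole-column scaling it was 0.55, below the lysosome (0.67) and resident microglia (0.72) lists. It was 0.19 at Day 5 alone, 0.70 at Day 15 alone and -0.02 with microglia genes in place of the score genes. Plin2, which coats lipid droplets, had a slope of 1.19 (SE 0.541, limma adjusted p = 0.629). Its RPKM was 1.69 to 73.1 at Day 5 (median 17.1) and 0.0530 to 59.1 at Day 15 (median 35.2). Among the 4 Day 15 libraries with the lowest scores, replicates 6 and 3 held 0.359 and 0.0530, and replicates 7 and 8 held 49.6 and 59.1. The gene was thus high in some libraries of low score as well as in some of high score.

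Apoe, the lipid carrier that phagocytes and astrocytes secrete, had a slope of 0.79 (SE 0.405, limma adjusted p = 0.676). It was at 15.0 to 168 RPKM at Day 5 (median 76.0) and at 4.30 to 203 RPKM at Day 15 (median 15.6). Lpl, the lipoprotein lipase, had a slope of 0.91 (0.25 in the lowest of the fits without 1 library), and Nceh1, which hydrolyses stored cholesterol esters, of 0.67 (limma adjusted p = 0.629 and 0.676). Osbpl9, a carrier of sterols and phospholipids between membranes, was named by the smallest p among positive slopes above that minimum, at 1.35 (SE 0.350, limma adjusted p = 0.552). It held 35.9 RPKM in Day 15 replicate 2, 30.8 in Day 15 replicate 5 and 10.2 or less in the other 13 stroke libraries, down to 0.00269 in Day 15 replicate 6. Its slope was 0.95 with whole-column scaling, where it was called, and 1.25 with microglia genes in place of the score genes.

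**Figure D2:**
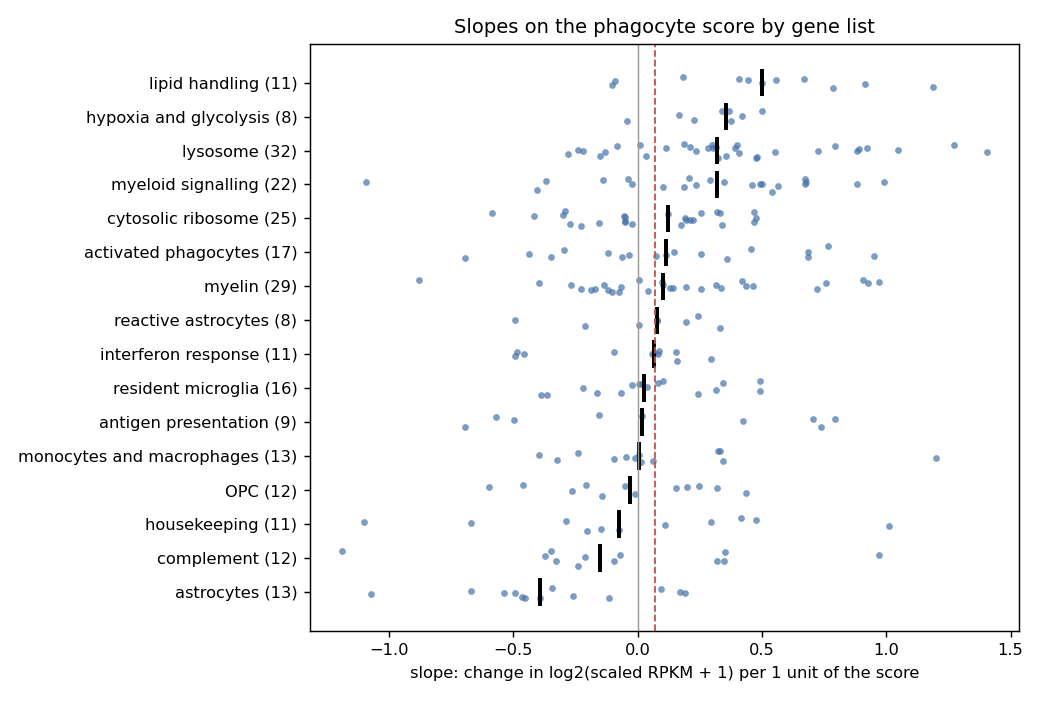
Slope of each tested gene on the phagocyte score (points), by gene list, for the lists with at least 8 tested genes; the number tested is in parentheses, black bars are medians and the dashed line is the median of all tested genes, 0.07. Lipid handling, hypoxia and glycolysis, lysosome and myeloid signalling have the highest medians, from 0.32 to 0.50, and astrocytes the lowest, -0.39 (0.18 for RPKM as deposited and 0.67 with whole-column scaling), while every list spreads over both sides of 0.

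Genes that define resident microglia had a median slope near 0 with this scaling. Of the 16 tested of 19, 10 had a positive slope, the median was 0.03, 0 were called and 0 had an unadjusted p under 0.05. The median was 0.38 for RPKM as deposited, and 0.72 with whole-column scaling, where it stood above that of the lysosome genes, so the order of the 2 lists depends on the scaling. The difference between them was not tested. The slope was 0.01 for Cx3cr1, the fractalkine receptor (95% interval -0.74 to 0.76), 0.04 for P2ry12, a purinergic receptor of surveying microglia (-0.52 to 0.59), and 0.02 for Tmem119, a membrane protein of resident microglia (-0.83 to 0.87). Csf1r, the receptor on which microglia depend for survival, was at 0.34 (limma adjusted p = 0.924). Tmem119 stood at 127 RPKM in Day 5 replicate 3 and at most at 15.1 in the other 14, and Cx3cr1 ran from 0.397 to 31.5. The upper ends of the intervals of Cx3cr1, P2ry12 and Tmem119 lie above 0.5, so these genes count as undetermined. Their slopes were -0.09, -0.04 and -0.14 after quantile normalization, 0.47, 0.12 and 0.67 for RPKM as deposited, and 0.91, 0.88 and 0.64 with whole-column scaling, where Cx3cr1 and P2ry12 were called.

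Monocyte and macrophage genes outside the score gave a median of 0.00 over 13 tested of 27, with 7 positive and 0 called. That median was -0.02 after quantile normalization, 0.23 for RPKM as deposited and 0.48 with whole-column scaling (0.03, 0.27 and 0.39 for all genes). It was 0.22 at Day 5 alone and 0.20 at Day 15 alone (0.07 and 0.09 for all genes). F13a1, a clotting factor subunit made by monocytes and some macrophages, was an exception in size, with a slope of 1.20 (SE 0.367, limma adjusted p = 0.629). Its RPKM was 104 in Day 15 replicate 5 and 0 to 6.80 in the other 14 stroke libraries, and without that library its slope was 0.39. The slope was 0.03 with whole-column scaling and -1.56 with microglia genes in place of the score genes. Lims1, an adaptor of integrin adhesions, had a slope of 1.08 (SE 0.334, limma adjusted p = 0.629) and 0.99 to 1.41 with each library left out. It held 25.2 and 18.7 RPKM in Day 15 replicates 5 and 2 and at most 8.70 elsewhere. Its slope was 0.86 with whole-column scaling, where it was called, and 0.39 with microglia genes in place of the score genes.

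Myeloid signalling genes had a median slope of 0.32, with 16 of 22 tested positive and 0 called. Arhgdib, a regulator of small GTPases in blood cells, was at 0.99 (SE 0.373), Dock2, which drives leukocyte migration, at 0.88 (SE 0.383) and Trem2, the lipid-sensing receptor that signals through Tyrobp, at 0.56 (SE 0.400; limma adjusted p = 0.629, 0.629 and 0.830). Cd33, an inhibitory receptor that binds sialic acid, went the other way at -1.09 (SE 0.382, limma adjusted p = 0.629). It held 87.9 RPKM in Day 15 replicate 6, the library with the lowest score, and 0.540 to 12.1 RPKM in the other 14. Its slope was -0.69 without that library, and 1.07 with whole-column scaling.

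Complement genes gave a median slope of -0.15 (0.37 for RPKM as deposited and 0.56 with whole-column scaling), with 4 of 12 tested positive, 3 of 12 wholly under 0.5 and 0 called. The median was 0.14 without Day 15 replicate 3 and -0.21 without Day 5 replicate 10. C1qc, a chain of the recognition molecule C1q that microglia make, had a slope of -1.19 (SE 0.436, limma adjusted p = 0.629) and rho = -0.74 (permutation p = 0.00245, adjusted 0.552). Its RPKM was 2.33 to 442 at Day 5 (median 21.7) and 1.62 to 110 at Day 15 (median 9.68), with the highest values in libraries of middling or low score, Day 5 replicate 10 and Day 15 replicate 3. Its interval, from -2.08 to -0.30, lay under 0, and the slope stayed between -1.46 and -0.95 with each library left out. It was -0.02 for RPKM as deposited and 0.51 with whole-column scaling. C1qa, another chain of C1q, was at -0.21 with an interval wholly under 0.5 (-0.80 to 0.38), and at 0.20 for RPKM as deposited. C3ar1, a receptor for a fragment of C3, was at 0.97 and C3 at 0.35 (limma adjusted p = 0.698 and 0.915). Without Day 15 replicate 2 they were at 0.50 and 0.03, and without Day 15 replicate 5 at 1.66 and 1.07.

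Genes of activated phagocytes had a median slope of 0.12, with 10 of 17 tested positive and 0 called. That median was 0.37 for RPKM as deposited, 0.18 after quantile normalization and 0.52 with whole-column scaling (0.27, 0.03 and 0.39 for all genes). Spp1, which encodes the secreted protein osteopontin, had a slope of -0.12 (SE 0.546, 95% interval -1.24 to 0.995), which was 0.56 for RPKM as deposited, 0.18 after quantile normalization and 0.06 with whole-column scaling. It ran from 3.46 through 61.8 to 1818 RPKM at Day 5 and from 1.30 through 4.47 to 153 RPKM at Day 15. Its lowest Day 5 value stood in replicate 9, which had the highest score of all, while its highest Day 15 value stood in replicate 5, which had the highest score of that day. The slope was 0.62 without Day 5 replicate 9 and -1.13 without Day 15 replicate 5. Gpnmb, a glycoprotein of phagocytes loaded with debris, was at 0.26 (SE 0.433) and Lgals3, the galectin of activated macrophages, at 0.46 (SE 0.340; limma adjusted p = 0.962 and 0.830). Their slopes were 0.82 and 0.66 for RPKM as deposited and 0.34 and 0.33 after quantile normalization. With whole-column scaling both were called, at 1.38 and 0.84.

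**Figure D3:**
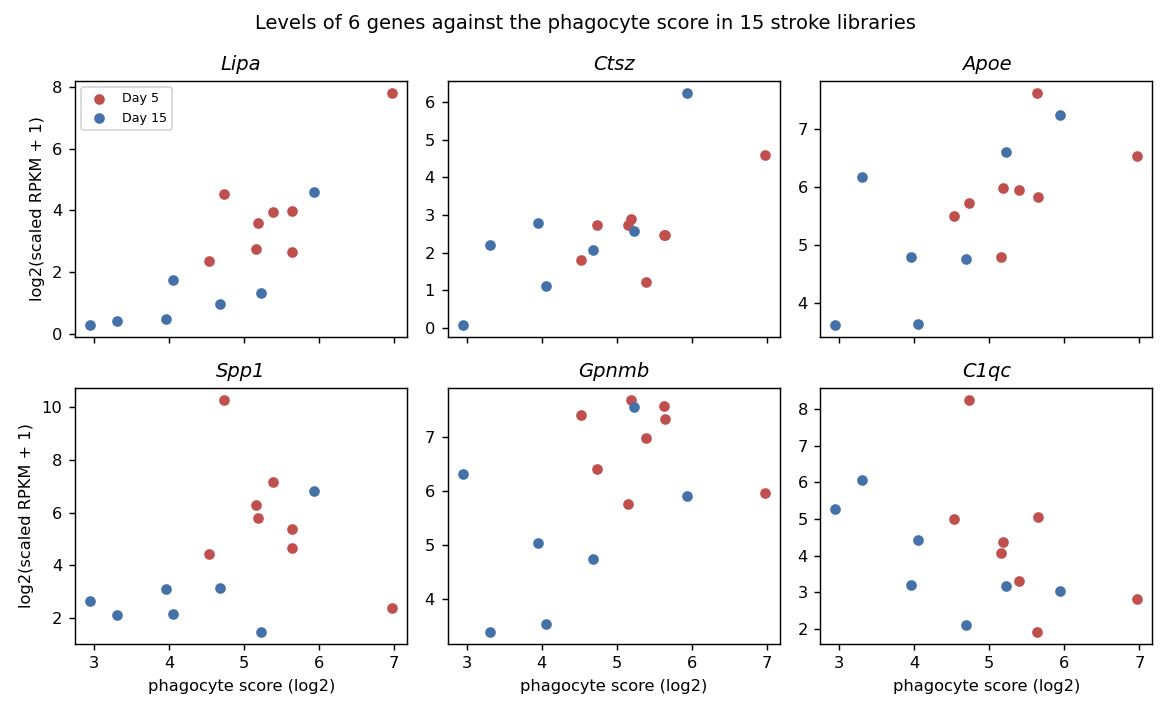
Level of 6 genes, log2(scaled RPKM + 1), against the phagocyte score in the 15 stroke libraries (red, 8 at Day 5; blue, 7 at Day 15). Lipa and Ctsz are highest in the 2 libraries of highest score, Spp1 is low in the highest-scoring library and C1qc has its highest values at low and middle scores; the fitted slopes within day with this scaling are 1.40, 1.27, 0.79, -0.12, 0.26 and -1.19 for Lipa, Ctsz, Apoe, Spp1, Gpnmb and C1qc, those of Spp1 and C1qc turning to 0.06 and 0.51 with whole-column scaling.

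The 5 named genes with the smallest p among negative slopes had intervals wholly under 0, and none was called. Zfp644, a zinc finger protein, had a slope of -1.66 (SE 0.456), Nlgn3, a synaptic adhesion protein that OPCs also make, of -1.35 (SE 0.420), Foxo3, a transcription factor of stress and survival, of -1.17 (SE 0.385), Elf1, an ETS transcription factor, of -1.11 (SE 0.341), and Otud7b, a deubiquitinase, of -1.03 (SE 0.357; limma adjusted p = 0.629 for all 5). Each was highest in 1 of the 2 libraries of lowest score. Zfp644, Nlgn3 and Otud7b held 221, 305 and 21.1 RPKM in Day 15 replicate 6, and Foxo3 and Elf1 held 131 and 36.1 RPKM in Day 15 replicate 3. Without Day 15 replicate 6 the slope of Nlgn3 was -0.49 and that of Zfp644 -1.01. With whole-column scaling the slopes of Zfp644, Nlgn3 and Otud7b were above 0, at 0.23, 0.56 and 0.52.

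OPC genes, the labelled cell type, showed no common direction along the score. Of the 25 on the list 12 were tested, 5 had a positive slope, the median was -0.03 (0.22 for RPKM as deposited, 0.01 scaled to the sum without Rn45s and 0.49 with whole-column scaling), 3 of 12 lay wholly under 0.5 and 0 were called. Pdgfra, the growth factor receptor that marks OPCs, ran from 0.333 to 23.9 RPKM at Day 5 and from 0.00943 to 6.52 RPKM at Day 15, with a slope of 0.44 (SE 0.337, limma adjusted p = 0.846). Sox10, a transcription factor of the whole oligodendrocyte lineage, ran from 0.572 to 43.2 RPKM at Day 5 and from 0.565 to 9.86 RPKM at Day 15. Its slope was -0.60 with an interval of -1.38 to 0.19, wholly under 0.5, and it was 0.12 for RPKM as deposited and 0.36 with whole-column scaling. Cspg4, the NG2 proteoglycan that also marks OPCs, fell below the filter, with medians of 0.464 RPKM at Day 5 and 0.283 at Day 15. In both days the median of Lyz2, 174 and 32.2 RPKM, stood above the highest Pdgfra value of that day in these libraries labelled as OPC.

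Myelin genes gave a median slope of 0.10 over 29 tested of 34, with 18 positive, 4 wholly under 0.5 and 0 called. Mbp, a main protein of compact myelin, was at 0.44 (SE 0.426). Gsn, the actin-severing protein gelsolin, which macrophages also make, was at 0.97 (SE 0.340) and Cryab, a small heat shock protein of oligodendrocytes and astrocytes, at 0.93 (SE 0.392; limma adjusted p = 0.629 for both). Cryab was at 0.33 in the lowest of the fits without 1 library.

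Astrocyte genes stood lowest among the lists. Of the 13 tested of 18, 3 had a positive slope, the median was -0.39, and 8 lay wholly under 0.5 (61.5% against 23.3% of all genes), with 0 called. With each library left out in turn the median stayed between -0.47 and -0.27. It was -0.30 after quantile normalization, 0.18 for RPKM as deposited and 0.67 with whole-column scaling, so its sign depends on the scaling. Gja1, the gap junction protein connexin 43, was at -0.67 (SE 0.348), Clu, a secreted chaperone, at -0.46 and Aqp4, the water channel of astrocyte endfeet, at -0.45 (limma adjusted p = 0.676, 0.830 and 0.861). With whole-column scaling Gja1 stayed under 0 at -0.15, while Clu stood at 0.73 and Aqp4 at 0.78. Genes of reactive astrocytes had a median of 0.08 (6 of 8 positive), with Gfap, the astrocyte filament protein, at 0.01 and Vim, another filament protein, at 0.08. For RPKM as deposited that median was 0.60, with Gfap at 0.69 and Vim at 0.74. With whole-column scaling it was 0.74, with Gfap at 1.03 and Vim, which was called, at 1.52.

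Other cell types had few genes above the filter. Of 20 genes of other leukocytes 1 was tested, Il7r, at 0.32. Of 26 neuronal genes 2 passed the filter, of 19 endothelial genes 4, of 20 genes of mural cells and fibroblasts 4, and of 7 red blood cell genes 0. Cldn5, the tight junction protein of brain endothelium, was at most 0.806 RPKM in the stroke libraries. Median slopes were 0.06 for the neuronal, 0.05 for the endothelial and 0.19 for the mural and fibroblast genes tested. The part of such cells in the slopes was not tested.

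Among general cell functions, genes of hypoxia and glycolysis had a median slope of 0.35 (7 of 8 tested of 16 positive, 0 called), with P4ha1, a collagen-modifying enzyme, at 0.50 and Ndrg1, a stress-response gene, at 0.37. Without Day 15 replicate 5 the median was 0.18. Cytosolic ribosome genes had a median of 0.12 over 25 tested of 78 (13 positive), and of -0.06 after quantile normalization. Antigen presentation genes had a median of 0.02 over 9, with H2-Ab1 at 0.71 (SE 0.311), H2-D1, a class I molecule, at 0.74 (SE 0.370) and Tapbp, which loads class I molecules, at -0.69 (SE 0.289; limma adjusted p = 0.629, 0.661 and 0.629). Interferon-response genes had a median of 0.07 over 11 (-0.01 after quantile normalization), with Stat2, a transducer of interferon signals, at -0.49 (0.17 for RPKM as deposited). Housekeeping genes had a median of -0.07 over 11 (0.28 for RPKM as deposited, 0.05 after quantile normalization and 0.54 with whole-column scaling), from -1.10 for Eef2, a translation elongation factor, to 1.01 for Tubb5, a tubulin. The slope of Eef2 was -0.46 without Day 15 replicate 6 and 0.92 with whole-column scaling. Mki67, a protein of dividing cells, was at -1.10 (SE 0.441, limma adjusted p = 0.629), at -0.37 without Day 15 replicate 6 and at 0.28 with whole-column scaling. For cytokines and chemokines 3 of 18 genes were tested, and Ccl5, Cxcl10 and Cxcl16 were at 0.44, 0.44 and 0.18. The remaining lists had medians of -0.04 (respiratory chain, 5 tested of 71), 0.20 (proteasome, 6 of 34), 0.19 (immediate early and stress genes, 4 of 15), 0.01 (cell cycle, 3 of 24) and -0.01 (inhibitors of oligodendrocyte differentiation, 4 of 19), with 0 called in each.

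No difference in slope between the days passed the test. An interaction of score and day was called for 0 of 3037 genes (0%; limma, smallest adjusted p = 0.605), and 170 had an unadjusted p under 0.05. For Spp1 the slope at Day 15 exceeded that at Day 5 by 2.93 (SE 1.02, limma adjusted p = 0.605), and for Lipa the slope at Day 15 was lower by a fitted difference of -0.68 (SE 0.800, limma adjusted p = 0.969). Taken alone, neither day gave a called gene, with 155 positive and 34 negative genes before adjustment at Day 5 and 128 and 69 at Day 15.

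The 10 control libraries, which had no part in the order, were scaled and scored in the same way, with scores of 1.37 to 3.01. Of the same 3037 genes, 0 were called against the score (0%; limma, smallest adjusted p = 0.117), with 115 positive and 80 negative before adjustment. Ifitm3, an interferon-induced membrane protein, passed without Control replicate 2 (slope 4.62, limma adjusted p = 0.0415) and was named after its value was seen. From RPKM as deposited 21 genes passed (0.691%). The slope in controls had the sign of the slope in stroke libraries for 1492 genes (49.1%). For Lipa the control slope was 1.39 (SE 0.981), for Ctsz -0.47 (SE 0.437) and for Gpnmb 2.47 (SE 0.828; limma adjusted p = 0.773, 0.814 and 0.673). The lysosome list had a median control slope of 0.12 and the lipid-handling list of 0.28, against -0.07 for all tested genes.

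Whether the genes that stroke changed were also those with a slope was read from a comparison of both stroke days with controls, with all 25 libraries scaled together. In limma 13 genes were higher (0.428%) and 8 lower (0.263%) of 3037. These genes were kept for their level in the stroke libraries, which removes genes that were high in controls and low after stroke, so the 2 counts cannot be set against each other. With the filter over all 25 libraries, an alternative chosen after seeing the data, 9 were higher (0.209%) and 10 lower (0.232%) of 4314, and 15 of the 21 genes were called again. The 5 largest rises on the log2(scaled RPKM + 1) scale were those of Spp1 by 3.13 (SE 0.626), Plin2 by 3.05 (SE 0.632), Gpnmb by 3.04 (SE 0.622), Sirpa, the receptor for the signal that restrains engulfment, by 2.47 (SE 0.519), and Apoe by 2.45 (SE 0.520; limma adjusted p = 0.0144 for all 5). Among the other 8 were Man2b1, Apobec1, Cd180, Ucp2, Tnfrsf1b, Nceh1 and Abcd2. These genes lie outside the rule for named genes and are listed because the comparison called them.

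Among the 13 higher genes the slope on the score had a median of 0.19 and ran from -0.29 for Abcd2, a peroxisomal lipid transporter, to 1.19 for Plin2. It was positive in 11, had an unadjusted p under 0.05 in 1 (Plin2) and lay wholly under 0.5 in 1 (Abcd2). Spp1, Gpnmb and Plin2, with differences above 3 between stroke and control, had uncalled slopes of -0.12, 0.26 and 1.19. Their intervals overlapped (-1.24 to 0.995, -0.63 to 1.14 and 0.08 to 2.29), and the contrast was not tested. Plin2 stayed highest of the 3 for RPKM as deposited (0.56, 0.82 and 0.94) and after quantile normalization (0.18, 0.34 and 1.07). With whole-column scaling the slopes were 0.06, 1.38 and 0.88, and that of Gpnmb was called. Without Day 15 replicates 6 and 3 they were -0.51, 0.31 and 0.26. In Lipa, Ctsz and F13a1, with slopes of 1.40, 1.27 and 1.20, the difference between stroke and control was 0.17, 1.20 and 1.13 (limma adjusted p = 0.950, 0.223 and 0.167).

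The 8 lower genes were Mtap7d1, Plekhh1, Osbpl1a, Scd1, Otud7b, Cldn11, Kif5a and Rapgef4. Cldn11, the tight junction protein of myelin, differed by -2.59 (SE 0.600) and Kif5a, a kinesin motor of axonal transport, by -2.63 (SE 0.582; limma adjusted p = 0.0271 and 0.0186). Their slopes had a median of 0.05, 5 were positive and 3 lay wholly under 0.5, and 1, Otud7b, had an unadjusted p under 0.05. The median of all genes stood 0.11 higher after stroke with this scaling and 0.55 higher for RPKM as deposited, where 114 genes were higher and 1 lower. After quantile normalization 32 were higher and 11 lower.

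**Figure D4:**
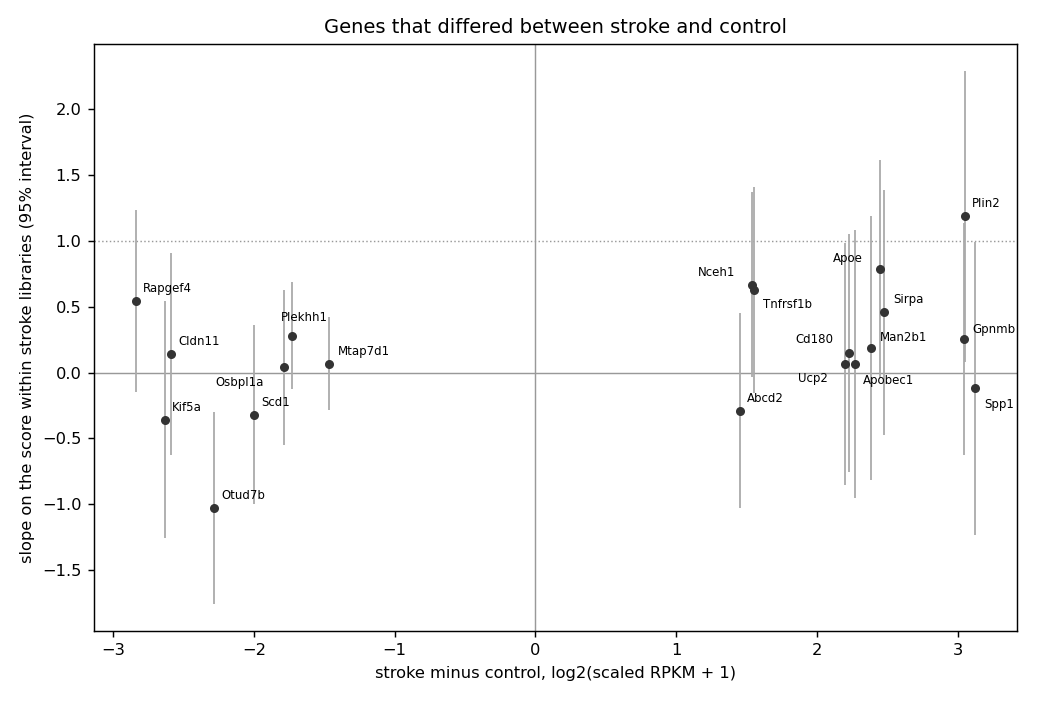
The plot shows 20 of the 21 genes that differed between the stroke libraries and controls, by that difference (horizontal, log2 scale) and by their slope on the phagocyte score within the stroke libraries (vertical, with its 95% interval). The dotted line marks a slope of 1, and the 12 genes shown on the right, higher after stroke, have slopes from -0.29 (Abcd2) to 1.19 (Plin2).

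How the upper quartile was taken changed the count of genes that follow the score. With the 75th percentile of the whole column, over all genes above 0 in any library, in place of the 3042 kept genes, 679 genes had a called positive slope (22.4%) and 1, Appl2, a called negative one (0.0329%), and the median slope of all genes was 0.39. That percentile lay between 0.0321 and 1.36 RPKM, where most genes are near 0, against 1.62 to 11.5 RPKM for the kept genes. Divided by the geometric mean of the 15 libraries, it was 0.104 in Day 15 replicate 6, 0.138 in Day 15 replicate 2 and 0.314 in Day 5 replicate 6, so all genes of these libraries were scaled up. Under it Day 15 replicate 2 had the highest score of all, 8.35, and Day 15 replicate 6, lowest with the other scaling at 2.95, had 5.69.

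Without the 3 libraries in which this percentile was lowest, an alternative chosen after seeing the data, 0 genes were called with it (limma, smallest adjusted p = 0.377, 85 positive and 19 negative before adjustment). With the upper quartile of the kept genes and the same 12 libraries 0 were called as well (smallest adjusted p = 0.392, 145 positive and 27 negative). Of the lists, the 679 genes held 8 of 16 microglia genes, 7 of 17 of activated phagocytes, 10 of 25 of the cytosolic ribosome, 9 of 32 of the lysosome, 7 of 29 of myelin and 4 of 13 of astrocytes, and 0 of 13 of monocytes and macrophages (22.4% of all genes). The difference between the days was 0.13 with this scaling, against 1.10.

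**Figure D5:**
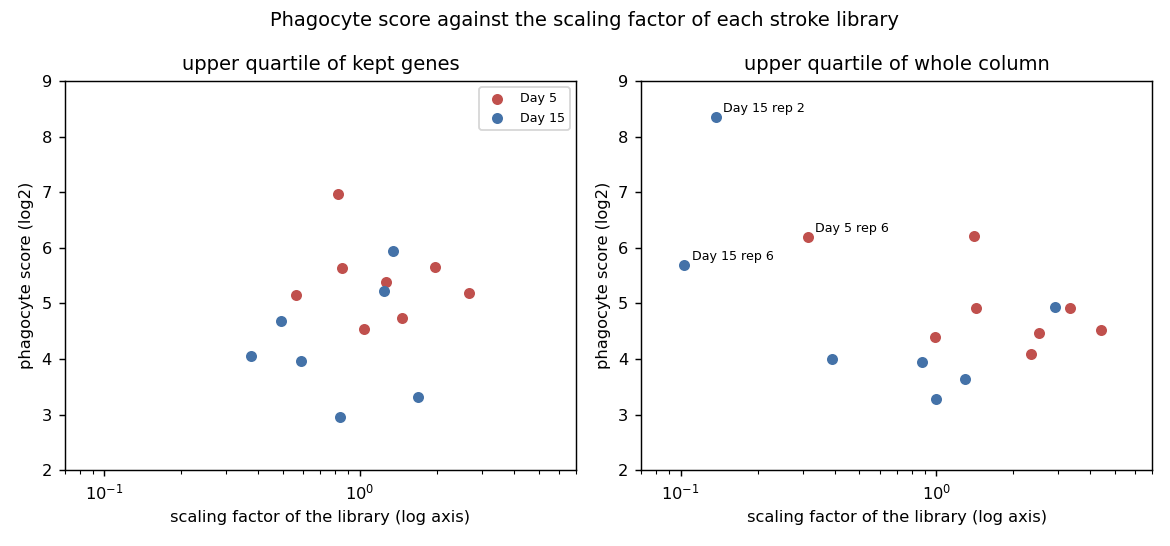
The phagocyte score of the 15 stroke libraries (red, Day 5; blue, Day 15) against the factor each library was divided by (log axis), for the upper quartile of the kept genes (left) and of the whole column (right). On the left the factors run from 0.376 to 2.67, and on the right the 3 labelled libraries, with factors of 0.104 to 0.314, have scores of 5.69 to 8.35.

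With no scaling, 7 genes were called, all with positive slopes (0.230%). They were Trafd1 at 1.11, Csf2rb, the shared receptor chain of myeloid growth factors, at 1.496, Pebp1 at 0.76, Mybbp1a at 1.10, Tomm70a, a mitochondrial import receptor, at 1.14, Peli2 at 1.16 and Csnk1g1 at 1.31 (limma adjusted p = 0.0298 to 0.0387), and the median slope of all genes was 0.27. Quantile normalization gave 0 called genes (124 positive and 77 negative before adjustment, smallest adjusted p = 0.589), and so did scaling to the RPKM sum without Rn45s (159 and 76, smallest adjusted p = 0.195). None of the 98 named genes that were tested passed under these 2 or with no scaling.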

How the data were processed

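Laser-captured RNA was turned into cDNA and amplified (Nugen kit), then sequenced as paired ends, per the labels' protocols. Tools named are CASAVA 1.8.3, STAR 2.1.4a and HTSeq, with the build mm9, per the submitters' processing notes. The authors deposited RPKM for 23351 genes, and the sources used here do not say how it was scaled. The values do not step in whole reads, so the depth of each library is unknown. Symbols turned into dates by a spreadsheet (25) were left unnamed. Strand was not stated, so overlapping genes and paralogs are uncertain. Amplification of little RNA makes low values erratic.

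Samples were grouped and numbered by their labels, which name no animal. If captures of 1 animal stand as separate samples, p-values are too small, and they reflect sample-to-sample spread that may be technical only. Genes that reached 1 RPKM in 7 or more of the 15 stroke libraries were kept (3042, of which 3037 were tested, without the 5 score genes). Columns were divided by their 75th percentile over the kept genes, relative to the geometric mean, and taken as log2(scaled RPKM + 1), which understates the change of low genes. Slopes, the interaction and group differences were fitted with limma 3.58.1 in R 4.3.3 (trend and robust variance, two-sided), with Benjamini-Hochberg adjustment over 3037 genes. Correlations used day-centred values and 100000 permutations within day (Python 3.11.15, numpy 2.4.6, scipy 1.17.1). Both were tested on simulated data. The planned exact permutation test of the score between the days is not reported, since the score set the order.

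The libraries, score genes and 27 gene lists were chosen with earlier results of these data known, so lists have counts and medians and no test. Named genes are the 5 with the smallest p in each direction with a mean RPKM of at least 5 (none was called), a panel, and the 3 smallest p of each list; no gene of that level had an interval within 0.5 of 0 on both sides. The alternatives tried were other scalings, a pseudocount of 0.1, filters, score genes, covariates, library weights and subsets of libraries. Values of a few genes are not reported here, though these genes stay in the counts and medians.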

Additional observations from a re-analysis of the deposited data

Results flagged for a closer look

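In 14 of 78 groups checked, 1 library stood apart from the others of its group by Dixon's criterion at the 95% level. The groups include the score, its 5 genes, and genes picked by their slope p in these same libraries. The usual 5% of groups is thus no yardstick here, and the flags are a description only. All values are on the log2(scaled RPKM + 1) scale.

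Day 5 replicate 9 had the highest score of its day, 6.97 against 5.65 for the next, and Lipa stood at 7.81 there against 4.51. Lims1 was lowest in Day 5 replicate 6 at 0.225, with the next at 1.68. Day 5 replicate 3 was highest in both microglia genes that stood out, Cx3cr1 at 3.36 and Tmem119 at 5.60, against 1.74 and 2.08.

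Day 15 replicate 5 was highest in 4 phagocyte genes of its day: Lipa at 4.59, F13a1 at 6.28, Spp1 at 6.84 and Lgals3 at 2.71, against 1.75, 0.755, 3.16 and 1.19 for the next. Day 15 replicate 6 was highest in Zfp644 at 8.05 and Nlgn3 at 8.52, against 3.00 and 1.84, and Day 15 replicate 2 in Vim at 7.94, against 4.59.

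Among controls, Lyz2 stood at 5.88 in replicate 3, against 3.14, and Mpeg1 at 6.80 in replicate 7, against 3.19. The slopes of Lipa, F13a1, Spp1, Zfp644 and Nlgn3 without the library concerned are given with each gene above.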

How the results depend on the processing

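The count of genes that follow the score was 0 under 38 of the 43 fits, the reported one included. It was 7 with no scaling, 679 with the whole-column upper quartile (which also called 1 gene against the score) and 1 each without Tyrobp in the score, with no day term and without Day 5 replicate 9, so that it ran from 0 to 1 over the fits without 1 library. With the whole-column upper quartile, 134 of the 680 called genes had the opposite sign in the reported fit, 2 of them among the named genes: the slope of Cd33 became 1.07 and that of Tnfrsf19 1.29 (-0.21 as reported; limma adjusted p = 0.0442 and 0.00979). With called and uncalled slopes counted together, of 98 named genes 16 changed sign with no scaling, 7 after quantile normalization, 35 with the whole-column upper quartile, 36 with a score from microglia genes, and 0 to 8 over the fits without 1 library. The cause was not tested.

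The labels do not say whether the 5 replicate numbers found at both days pair the libraries. Same-numbered libraries had correlations of 0.039, -0.022, 0.029, 0.017 and -0.015 in their deviations, and whether they share an animal or a run was not tested. With the replicate block over these 10 libraries 0 genes were called (35 positive and 38 negative at an unadjusted p under 0.05; 165 and 25 without the block), and 41 of 98 named slopes changed sign. The score difference between the days was 1.71 over these 10 libraries. With the replicate block 19 genes were higher and 10 lower in stroke against control.

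The score difference between the days was 1.58 with no scaling, 1.27 after quantile normalization and 1.18 with a pseudocount of 0.1, 0.13 with the whole-column upper quartile, and 0.878 to 1.38 without 1 library. The score against the number of detected genes had rho = 0.75 with no scaling. Between stroke and control, 114 genes were higher and 1 lower with no scaling, and 32 higher after quantile normalization. With the filter over all 25 libraries 9 were higher and 10 lower. Among controls 21 genes followed the score with no scaling, and 0 to 1 without 1 library. The interaction gave 0 calls in all 18 fits tried. Promoter motifs were not described, since no gene followed the score. Depth is unknown, so a low value cannot be told from a missed transcript.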
